A study of Homo sapiens with 9 samples.

Results

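The genes described here are 10 of the 26196 gene symbols of the expression table: the growth factors FGF1, FGF2, FGF5, FGF7, PDGFA and HGF, and the receptors FGFR1, PDGFRA, PDGFRB and MET. They were chosen by name as ligands and receptors of fibroblast growth factor, platelet-derived growth factor and hepatocyte growth factor signalling, and the 39 transcripts listed for them were summed per gene. The 9 libraries were made from RNA of HCA2, a human fibroblast line that came from foreskin. The 3 normal libraries are labelled proliferative and PD-L1 positive, but whether those cells had been sorted is not stated. The PD-L1-negative and PD-L1-positive groups (3 libraries each) are senescent cells sorted by the surface protein PD-L1, the ligand of the T cell receptor PD-1. Both were made senescent over 12 days in all: 100 nM doxorubicin, which breaks DNA, was given for 24 hours and followed by 100 nM BI-2536, which blocks PLK1, a kinase of mitosis. All groups share this 1 line, and nothing states that the replicates came from separate cultures, so p-values measure only the spread between these libraries, which may be technical.

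Fibroblast growth factors bind receptor tyrosine kinases together with heparan sulfate chains on the cell surface, and the bound receptors pair and signal through adaptor proteins to the RAS-ERK kinases. Platelet-derived growth factor drives the division and migration of fibroblasts through its alpha and beta receptors. Hepatocyte growth factor is made by connective tissue cells as an inactive precursor, and its receptor MET is best known from epithelial cells. In skin, fibroblasts supply FGF7, which acts on the overlying keratinocytes through a splice form of FGFR2. Growth factors are also among the proteins that senescent fibroblasts are known to secrete.

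FGF7 and FGF5 moved furthest, in opposite directions. On the scale of the fit described below, FGF7 was 2.98-fold higher and FGF5 2.91-fold lower in senescent than in normal cells. FGF1 fell with FGF5, while FGF2 and the receptors FGFR1 and PDGFRA rose. MET fell by a smaller amount that depended on single libraries. PDGFA and PDGFRB varied more among the normal libraries than between groups, and HGF lay near the lowest measurable level. No gene of the 10 differed between the PD-L1-sorted groups at the threshold used.

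FGF5 and FGF7 lie on chr4:80266588-80291017 and chr15:49423242-49488775 (RefSeq GRCh38.p14), both on the plus strand. The stretches before a RefSeq start site of each are printed because these genes showed the largest changes in opposite directions. They are in lower case, 5′ to 3′ on the gene's strand, with each CpG dinucleotide in capitals. The first spans the 250 bases chr4:80266338-80266587. For FGF7, GENCODE starts the listed transcript NM_002009 at position 49423178, which lies 64 bases before the RefSeq start site, so the second is printed only up to there, as chr15:49422992-49423177.
FGF5 upstream: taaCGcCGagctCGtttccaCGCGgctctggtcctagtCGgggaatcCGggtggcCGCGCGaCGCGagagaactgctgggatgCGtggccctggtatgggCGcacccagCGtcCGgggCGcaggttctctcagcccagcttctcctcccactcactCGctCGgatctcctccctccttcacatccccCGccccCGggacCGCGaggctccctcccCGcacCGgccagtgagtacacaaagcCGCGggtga
FGF7 upstream: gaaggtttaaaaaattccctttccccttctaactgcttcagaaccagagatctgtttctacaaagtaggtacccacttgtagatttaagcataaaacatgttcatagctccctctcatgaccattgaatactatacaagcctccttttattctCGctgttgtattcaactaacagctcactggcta
Over the 250 bases before the RefSeq start site, the FGF5 stretch held 27 CpG dinucleotides and 68.8% G and C, more CpG than 82.3% of the 35116 human promoters of the same table. The FGF7 stretch of the same length, of which the last bases are not printed, held 2 CpG dinucleotides and 38.4% G and C, and 14.7% of promoters had fewer CpG. Over all promoters the medians were 11 CpG dinucleotides and 58% G and C. On either strand, the GC box GGGCGG occurred once in the FGF5 stretch, at position -64 from the start site, and this motif is in 42.6% of all promoters. Neither stretch held the TATA box TATAAA (10.7% of promoters), the AP-1 motif TGANTCA (6.57%), the E2F motif TTTNNCGC (5.92%), the E box CACGTG (6.34%), or the CArG (1.16%) and NF-kB (9.96%) motifs. A second RefSeq promoter of FGF5, at chr4:80268018-80268267, is not printed because no matched transcript starts near it. It held 3 CpG dinucleotides, 47.2% G and C and 2 TATAAA matches over both strands. These letters describe the windows and say nothing of which factors bind there. The deposited values were made on an older build, hg19, so these coordinates serve to place the genes and were not used with the expression values. Of the other ligand genes in the same RefSeq build, FGF1 lies at chr5:142592178-142698070, FGF2 at chr4:122826682-122898236, PDGFA at chr7:497258-520700 and HGF at chr7:81699010-81770047. Of the receptor genes, PDGFRA lies at chr4:54229293-54298245, PDGFRB at chr5:150113839-150155845 and MET at chr7:116672196-116798377.

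The splice junctions that tell the transcripts of FGF5 and PDGFA apart are printed because the transcripts encode different proteins. Each line gives the last 15 bases of the shared exon in lower case and the first 15 of the next exon in capitals.
FGF5 NM_004464: aagccaatatgttaaGTGTTTTGGAAATAT
FGF5 NM_033143: aagccaatatgttaaGCCAAGTTCACAGAT
PDGFA NM_002607: gggaagaggacacggGAAGGCCTAGGGAGT
PDGFA NM_033023: gggaagaggacacggATGTGAGGTGAGGAT
In FGF5 the first exon ends at chr4:80267179 in both transcripts (GENCODE GRCh38), and NM_033143 omits the exon of 104 bases that NM_004464 uses next. The full-length protein has 268 residues and the short form 123. In PDGFA, on the minus strand, the shared exon is chr7:501116-501242, and NM_002607 includes an exon of 69 bases that NM_033023 lacks. The proteins have 211 and 196 residues, and the longer carries a basic tail known to hold the factor at the cell surface and matrix.

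The normal libraries differed among themselves before any comparison with senescent cells. MKI67, a marker of dividing cells, stood at 61.3, 33.4 and 12.7 FPKM in replicates 1, 2 and 3 of that group, and the cell cycle inhibitor CDKN1A (p21) at 109.9, 214 and 311 FPKM. In the 6 senescent libraries MKI67 lay between 1.64 and 6.09 FPKM and CDKN1A between 498 and 686 FPKM. FPKM counts sequenced fragments relative to the length of the transcript and the size of the library. Counting steps in the low values placed the depth at about 11700000 to 17700000 fragments per library. All 10 dermal fibroblast markers were present in every group, while the 5 keratinocyte markers summed to at most 0.27 FPKM in any library, and the endothelial markers PECAM1, CDH5 and VWF averaged under 0.1 FPKM in each group. The fourth endothelial marker, TEK, averaged 1.08 FPKM in normal and 0.519 FPKM in each senescent group, and the endothelial list summed to at most 1.69 FPKM in any library. Leukocyte markers summed to at most 1.67 FPKM and melanocyte markers to at most 2.36 FPKM in any library. CD274, which encodes PD-L1, averaged 4.20 FPKM in normal libraries, 0.765 FPKM where the sort was negative and 1.31 FPKM where it was positive.

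**Figure D1:**
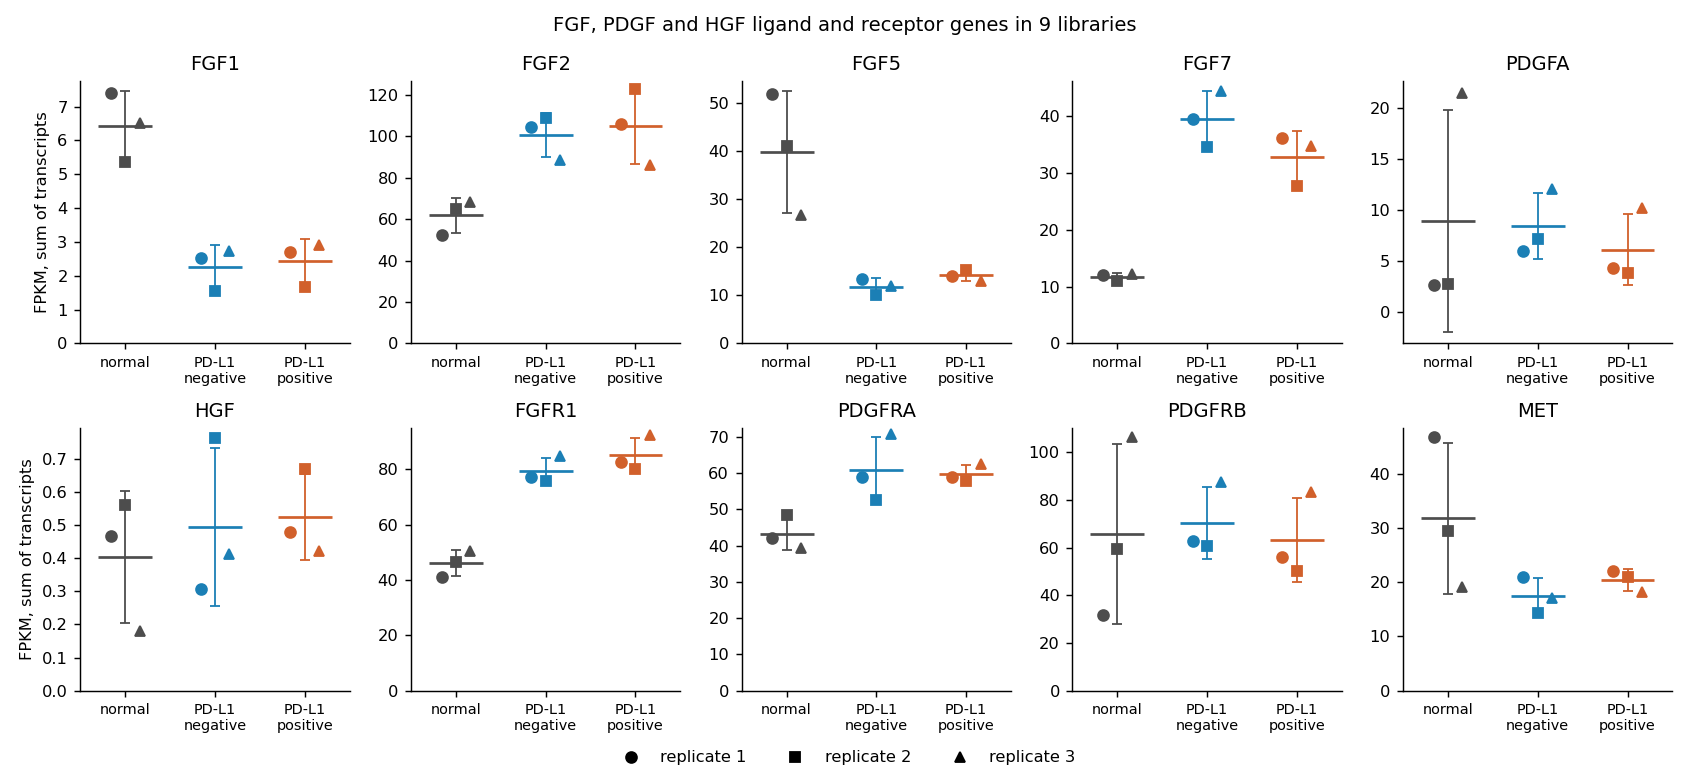
FPKM (y axis, from 0 except where an error bar passes below it) of each of the 10 genes in the 9 libraries, by group (x axis); points are libraries with a symbol for each replicate number, horizontal lines are group means and bars are ± 1 SD (n = 3). Every senescent library lies above every normal library for FGF2, FGF7, FGFR1 and PDGFRA and below for FGF1 and FGF5, while normal replicate 3 stands at 21.5 FPKM for PDGFA and at 106.3 FPKM for PDGFRB.

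Of the ligands, FGF7, the keratinocyte growth factor, stood at 12.0, 10.9 and 12.3 FPKM in the normal libraries. It stood at 39.5, 34.5 and 44.5 FPKM in the PD-L1-negative and at 36.2, 27.7 and 34.8 FPKM in the PD-L1-positive libraries. Every senescent library was above every normal one, and the normal libraries lay close together. Differences between groups were tested with limma on log2(FPKM + 0.5) over 12763 genes, with p-values adjusted by the Benjamini-Hochberg method over all of them, and a gene is called at an adjusted p under 0.05. FGF7 rose by 1.57 on the log2 scale from normal to the mean of both senescent groups (SE 0.11, adjusted p = 1.85e-05). PD-L1-negative cells alone showed a rise of 1.70 (SE 0.13, adjusted p = 4.27e-05), and PD-L1-positive cells alone showed one of 1.44 (SE 0.13, adjusted p = 9.12e-05). The libraries held an estimated 691 to 2486 fragments of FGF7 each. Whether the counting used the strand is not given in the sources used here, so reads of FAM227B, which overlaps FGF7 on the opposite strand, could not be told apart, and FAM227B averaged 0.414 FPKM in normal and 0.716 FPKM in senescent libraries. The partial FGF7 copies KGFLP1 and KGFLP2 reached at most 0.588 and 0.169 FPKM. In bulk RNA, fewer cells that express a gene and less RNA per cell cannot be told apart.

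FGF5, known in mammals as a signal that ends hair growth, stood at 51.7, 41.0 and 26.6 FPKM in the normal libraries. It stood at 13.4, 9.98 and 11.9 FPKM in the PD-L1-negative and at 14.1, 15.3 and 13.1 FPKM in the PD-L1-positive libraries. All senescent libraries were below all normal ones, and the lowest normal library was replicate 3, which also had the lowest MKI67 of its group. FGF5 fell by 1.54 in log2 units (SE 0.18, adjusted p = 0.000183), and without normal replicate 3 by 1.80. The part of cell division in this difference was not tested. The ratio of FGF7 to FGF5, a measure chosen after the values were seen and given without a test, was 0.232, 0.266 and 0.461 in the normal libraries. It was 2.95, 3.46 and 3.73 in the PD-L1-negative and 2.58, 1.81 and 2.66 in the PD-L1-positive libraries. The more abundant ligand of this pair was therefore FGF5 in each normal library and FGF7 in each senescent library.

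The full-length FGF5 transcript NM_004464 had 43.2, 34.8 and 23.3 FPKM in the normal libraries and between 7.25 and 11.9 FPKM in the senescent ones. The short transcript NM_033143, whose protein is known to oppose full-length FGF5, had 7.70, 5.85 and 2.99 FPKM in the normal libraries and between 1.49 and 3.03 FPKM in the senescent ones. The groups were apart for the long form and overlapped for the short form. In the limma fit over 19964 transcripts, the long form fell by 1.64 (SE 0.20, adjusted p = 0.000395) and the short form by 0.92 (SE 0.26, adjusted p = 0.0217). The call of the short form was lost without normal replicate 1 (log2 change -0.65, adjusted p = 0.0927) and without normal replicate 2 (-0.84, adjusted p = 0.0855). It was also lost without the filter on low values, and was kept in 16 of 19 alternative settings. The short form made up 14.9%, 14.3% and 11.2% of FGF5 FPKM in the normal libraries, and from 12.5% to 24.3% in the senescent ones, so these shares overlapped.

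FGF1, the ligand that binds all FGF receptors, stood at 7.42, 5.37 and 6.52 FPKM in the normal libraries. It stood at 2.52, 1.55 and 2.75 FPKM in the PD-L1-negative and at 2.71, 1.66 and 2.90 FPKM in the PD-L1-positive libraries. The groups did not overlap, and replicate 2 was the lowest library of each group. FGF1 fell by 1.30 in log2 units (SE 0.20, adjusted p = 0.000577), on an estimated 77 to 474 fragments per library. NM_001144892 carried 75.0% to 92.4% of FGF1 FPKM in the normal libraries and 60.4% to 93.1% in the senescent ones. It fell by 1.34 (SE 0.23, adjusted p = 0.00215). NM_001257212, which matches the same GENCODE transcript, averaged 0.417 FPKM in normal and 0.00035 FPKM in senescent libraries, so their split is uncertain. NM_001257210 averaged 0.321 and 0.354 FPKM, in that order, and lay under the filter, so it was not tested.

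FGF2, the basic growth factor that fibroblasts themselves respond to, was the most abundant ligand of the 10 genes in every group. It stood at 52.2, 65.1 and 68.0 FPKM in the normal, at 104.6, 108.9 and 88.6 FPKM in the PD-L1-negative and at 105.8, 122.6 and 86.1 FPKM in the PD-L1-positive libraries. Replicate 3 was the lowest library in both senescent groups, and yet each senescent library exceeded each normal one. FGF2 rose by 0.73 in log2 units (SE 0.13, adjusted p = 0.00149). NUDT6 overlaps FGF2 on the opposite strand, and it averaged 1.89 FPKM in normal and 1.43 FPKM in senescent libraries.

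PDGFA, the chain of the dimer PDGF-AA, stood at 2.64, 2.78 and 21.5 FPKM in the normal libraries. It stood at 6.003, 7.20 and 12.1 FPKM in the PD-L1-negative and at 4.40, 3.88 and 10.2 FPKM in the PD-L1-positive libraries. Replicate 3 was the highest library in all 3 groups, and normal replicate 3 was above every senescent library. The log2 difference was 0.25 (SE 0.60, adjusted p = 0.746), with a 95% interval from -1.09 to 1.59. The SD of PDGFA among normal libraries on the log2 scale, 1.60, exceeded that of 99.7% of the genes tested. Without normal replicate 3 the difference was 1.17 (adjusted p = 0.0162), and without normal replicate 1 it was -0.23 (adjusted p = 0.791). The short-tailed transcript NM_033023, whose junction is printed above, carried at least 93.0% of PDGFA FPKM in each library, and NM_002607 reached at most 0.301 FPKM.

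HGF stood at 0.469, 0.563 and 0.179 FPKM in the normal libraries. It stood at 0.309, 0.765 and 0.413 FPKM in the PD-L1-negative and at 0.481, 0.672 and 0.421 FPKM in the PD-L1-positive libraries. The groups overlapped, and each library held an estimated 6 to 25 fragments of HGF. Its mean lay under the filter of 0.5 FPKM. Fitted without that filter, HGF differed by 0.17 in log2 units (SE 0.19, adjusted p = 0.533), with a 95% interval from -0.26 to 0.59. The transcript NM_001010932 had 0.107, 0.140 and 0.0774 FPKM in the normal libraries and between 0.166 and 0.455 FPKM in the senescent ones. These ranges did not overlap, which was noticed after the values were seen. It lay under the filter and was not tested, and the other listed HGF transcripts overlapped.

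Among the receptors, FGFR1, the main FGF receptor of fibroblasts, stood at 41.1, 46.5 and 50.3 FPKM in the normal libraries. It stood at 77.3, 75.7 and 84.9 FPKM in the PD-L1-negative and at 82.8, 80.1 and 92.3 FPKM in the PD-L1-positive libraries. The groups were well apart, and replicate 3 was the highest library of each. FGFR1 rose by 0.83 in log2 units (SE 0.09, adjusted p = 9.31e-05). The transcript NM_023106, whose protein of 731 residues lacks the first immunoglobulin loop, held 53.7%, 55.8% and 56.4% of FGFR1 FPKM in normal libraries and from 51.5% to 58.1% in senescent ones. It rose by 0.83 (SE 0.11, adjusted p = 0.000623). Its share thus overlapped between the groups while its level did not.

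NM_001174065, which encodes a form of 820 residues with all 3 loops, stood at 0.0501, 1.61 and 2.07 FPKM in normal and between 4.32 and 7.10 FPKM in senescent libraries. It rose by 2.13 (SE 0.44, adjusted p = 0.00532), and by 1.43 without normal replicate 1 (adjusted p = 0.00203). NM_001174063, with a protein of the same length from another start, rose by 0.79 (SE 0.14, adjusted p = 0.00262). NM_023105 and NM_001174066 match the same GENCODE transcript of 733 residues, and single libraries gave most of the signal now to the former and now to the latter, so their split is uncertain. Together they had 12.2, 13.3 and 13.6 FPKM in the normal libraries and between 19.1 and 22.9 FPKM in the senescent ones. The forms of 731 and 733 residues made up 83.4%, 84.4% and 83.4% of FGFR1 FPKM in normal libraries and from 78.8% to 81.9% in senescent ones, a pair of ranges that did not overlap and that was noticed after the values were seen. LETM2, which overlaps FGFR1 on the opposite strand, averaged 1.62 FPKM in normal and 1.21 FPKM in senescent libraries. Over all transcripts of the 10 genes, 9 of the 15 that passed the filter were called, 6 higher and 3 lower, against 36.8% of all transcripts tested (16.1% higher, 20.7% lower).

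**Figure D2:**
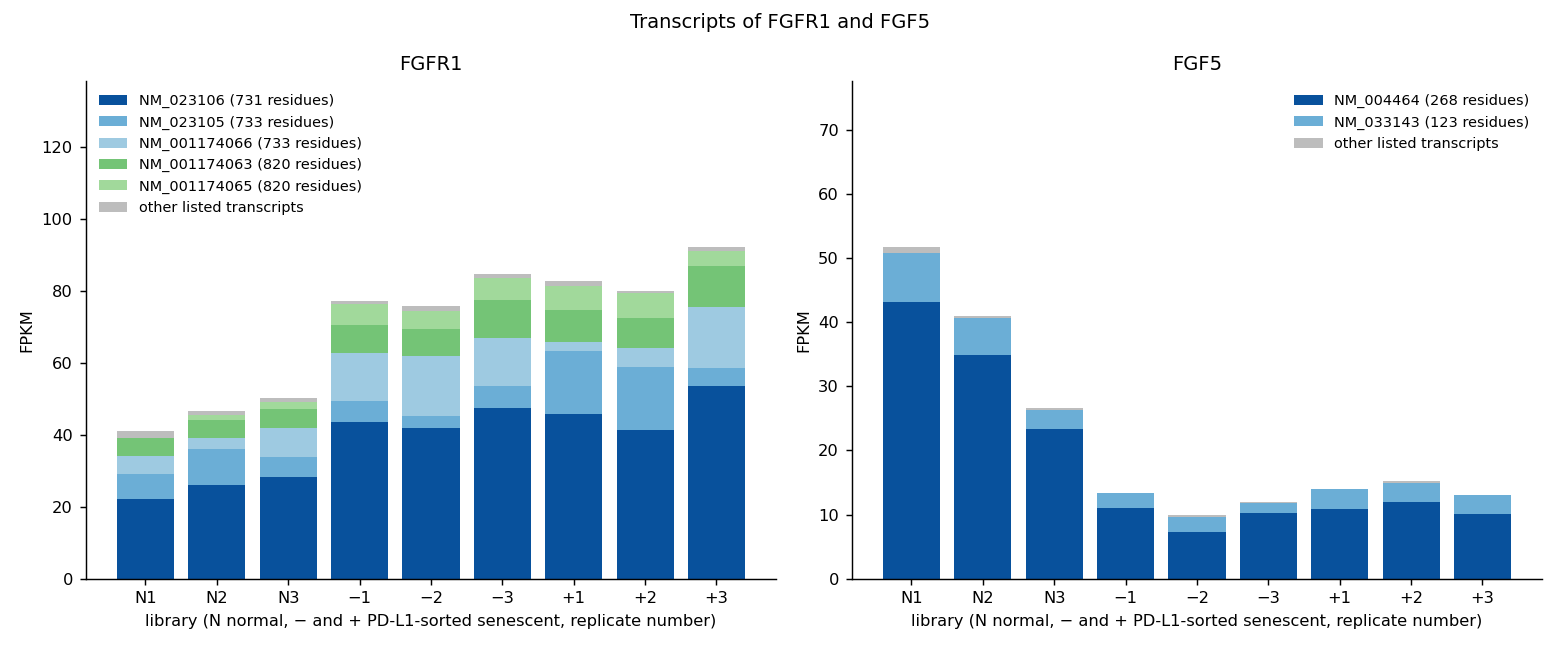
FPKM (y axis) of the listed transcripts of FGFR1 (left) and FGF5 (right) as stacked bars for each of the 9 libraries (x axis, N normal, − PD-L1-negative, + PD-L1-positive, with the replicate number); colours stand for transcripts with the length of the encoded protein. NM_023106 holds between 51.5% and 58.1% of FGFR1 in each library, and NM_023105 and NM_001174066 trade places between libraries.

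PDGFRA, the receptor that binds all PDGF dimers except the DD form, stood at 42.1, 48.4 and 39.5 FPKM in the normal libraries. It stood at 59.0, 52.6 and 70.8 FPKM in the PD-L1-negative and at 59.0, 57.8 and 62.6 FPKM in the PD-L1-positive libraries. All senescent libraries were above all normal ones, by a narrow margin in PD-L1-negative replicate 2. PDGFRA rose by 0.47 in log2 units (SE 0.10, adjusted p = 0.00445). With each library scaled to an equal sum of FPKM, which lowers the median log2 difference of all genes by 0.11, the rise was 0.35 and still called, but the calls of each sorted group alone against normal were lost (adjusted p = 0.0714 without PD-L1 at the surface, 0.0879 with it).

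PDGFRB, the receptor that marks mesenchymal and mural cells, stood at 31.6, 59.5 and 106.3 FPKM in the normal libraries. It stood at 62.7, 60.5 and 87.7 FPKM in the PD-L1-negative and at 56.1, 50.2 and 83.4 FPKM in the PD-L1-positive libraries. The groups overlapped, and replicate 3 was the highest library of each, as for PDGFA. PDGFRB differed by 0.16 in log2 units (SE 0.33, adjusted p = 0.705), and the difference was -0.28 without normal replicate 1 and 0.59 without normal replicate 3, not called in either case. The ratio of PDGFRB to PDGFRA was 0.751, 1.23 and 2.69 in the normal libraries and between 0.867 and 1.33 in the senescent ones. The order of both receptors was therefore not the same in all normal libraries. The pericyte markers RGS5, MCAM, CSPG4 and NOTCH3 summed to 66.5 to 68.2 FPKM in normal and to at most 38.3 FPKM in senescent libraries. Most of that fall lay in CSPG4, which averaged 45.4 FPKM in normal, 13.4 FPKM in PD-L1-negative and 17.8 FPKM in PD-L1-positive libraries. The median of the 4 marker means was 10.5, 9.03 and 9.26 FPKM in the same order. The part of these markers in the PDGFRB values was not tested.

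MET, the HGF receptor, stood at 46.8, 29.4 and 19.2 FPKM in the normal libraries. It stood at 20.9, 14.3 and 17.1 FPKM in the PD-L1-negative and at 22.1, 20.9 and 18.2 FPKM in the PD-L1-positive libraries. Normal replicate 3 lay within the senescent range, and the normal library with the highest MET also had the highest MKI67. Across normal replicates 1 to 3, over which MKI67 fell, FGF5 and MET fell while FGF2, FGFR1, PDGFA and PDGFRB rose. FGF1, FGF7, PDGFRA and HGF followed neither order. The part of cell division in these values was not tested. MET fell by 0.66 in log2 units (SE 0.24, adjusted p = 0.0398). The difference was -0.34 and not called without normal replicate 1 (adjusted p = 0.157), and -0.97 without normal replicate 3 (adjusted p = 0.00193). It was called in 10 of 20 alternative settings, over which its adjusted p ranged from 0.00193 to 0.157. In PD-L1-negative cells MET fell by 0.77 (SE 0.27, adjusted p = 0.0415), a call kept in 10 of 21 settings and lost with only the compared libraries in the fit (adjusted p = 0.0765), and in PD-L1-positive cells the difference of -0.54 (SE 0.27) was not called (adjusted p = 0.131). The difference between the sorts themselves was 0.23 (SE 0.27, adjusted p = 1.0), so MET is not shown to differ between them. The main MET transcript NM_000245, with 97.4% or more of the signal in each library, was not called (adjusted p = 0.0561).

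In the comparison of all senescent with normal libraries, 7 of the 9 genes that passed the filter were called, 4 higher and 3 lower. Over all genes tested, 53.8% were called, 23.9% higher and 29.9% lower, so a call by itself was common. Higher genes made up 44.3% of all calls, and 33.4% with each library scaled to an equal sum of FPKM. A call with a log2 change of at least 1 was made for 11.8% of all genes, and for FGF1, FGF5 and FGF7 of the 9. PD-L1-negative against normal gave 7 calls, against 47.5% of all genes (21% higher, 26.6% lower). PD-L1-positive against normal gave 6 calls, against 47.5% of all genes (21.1% higher, 26.3% lower). These comparisons share the normal libraries, so each gene's changes are given side by side. FGF1 changed by -1.34 (SE 0.23, adjusted p = 0.00146) in the negative and by -1.26 (SE 0.23, adjusted p = 0.00202) in the positive sort. FGF5 changed by -1.67 (SE 0.21, adjusted p = 0.000387) and by -1.41 (SE 0.21, adjusted p = 0.000892), in that order. FGF2 changed by 0.70 (SE 0.15, adjusted p = 0.00485) and by 0.75 (SE 0.15, adjusted p = 0.00355). FGFR1 changed by 0.78 (SE 0.10, adjusted p = 0.000408) and by 0.88 (SE 0.10, adjusted p = 0.000241). PDGFRA changed by 0.48 (SE 0.12, adjusted p = 0.0103) and by 0.47 (SE 0.12, adjusted p = 0.0118). All senescent libraries were apart from all normal ones for 6 of the 10 genes, which were FGF1, FGF2, FGF5, FGF7, FGFR1 and PDGFRA, and for 48.7% of all genes tested.

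**Figure D3:**
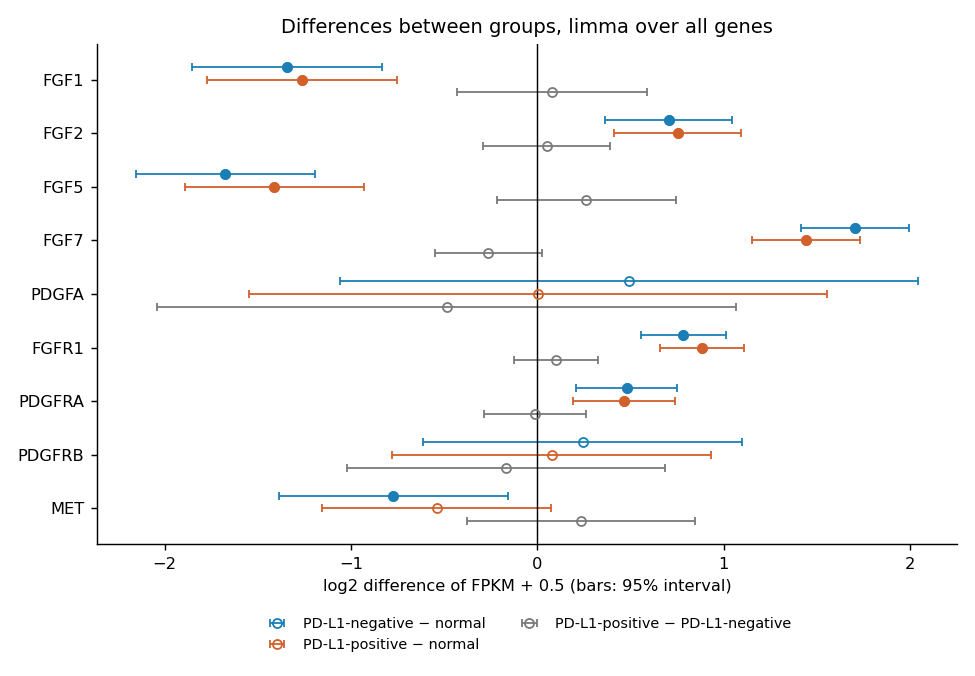
Log2 differences of FPKM + 0.5 (x axis) with 95% intervals from limma for the 9 genes that passed the filter (y axis) in 3 comparisons, shown by colour; filled points are called at an adjusted p under 0.05 over all genes. FGF1, FGF2, FGF5, FGF7, FGFR1 and PDGFRA have filled points in both senescent groups, MET only in PD-L1-negative cells, and every grey interval between the sorted groups crosses 0.

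Between the PD-L1-positive and PD-L1-negative groups no gene of the 9 was called by limma, and none of all 12763 genes (0% of genes, 222 at an unadjusted p under 0.05). The ranges of the sorted groups overlapped for all 10 genes, and they were apart for only 9.42% of all genes tested, so overlap by itself was common. FGF7 had the difference nearest to the threshold, -0.26 on the log2 scale with an interval from -0.55 to 0.03. FGF5 differed by 0.26, with an interval from -0.22 to 0.74. The interval was -0.13 to 0.33 for FGFR1 and -0.29 to 0.26 for PDGFRA. For PDGFA it reached from -2.04 to 1.06, so the libraries bear little on that gene. These intervals do not show that the sorted cells are alike.

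The order of levels by FPKM, which is scaled to transcript length, changed for FGF5 and FGF7. FGF5 was the fifth and FGF7 the seventh of the 10 genes in normal cells, and their places were exchanged in both senescent groups. In normal cells PDGFRB and FGF2 led with means of 65.8 ± 37.8 and 61.8 ± 8.45 FPKM (SD, n = 3), and their ranges overlapped. FGF2 led in both senescent groups, with 100.7 ± 10.7 FPKM (SD, n = 3) in the PD-L1-negative and 104.9 ± 18.3 FPKM (SD, n = 3) in the PD-L1-positive one. In the latter its range overlapped that of FGFR1, which was the higher in replicate 3. FGFR1, PDGFRB and PDGFRA followed in that order in both senescent groups, with neighbouring ranges that overlapped. FGF1 and HGF had the lowest means in each group, and HGF was apart from FGF1 in all 3. In normal cells FGF1 and PDGFA overlapped, and PDGFA was below FGF1 in replicates 1 and 2.

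For the genes called with a log2 change of at least 1, the tested genes of most similar profile over the 9 libraries were found by the root mean square difference of centred log2 values. COL6A3 (0.13) and CLN3 (0.16) were nearest to FGF1. DNMT1 (0.10) and MYBL1 (0.11) were nearest to FGF5. ZNF219 (0.14) and HTRA1 (0.14) were nearest to FGF7, and HTRA1 averaged 40.7 FPKM in normal and 104.0 FPKM in senescent libraries. The 9 libraries share the same groups, and likeness was not tested.

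The other genes of these pathways were read from 8 lists with 105 genes, of which 66 passed the filter, 23 rose and 12 fell, beside 23.9% higher and 29.9% lower over all genes tested. Their median log2 difference was 0.12, beside -0.04 for all genes tested. Against the same normal libraries, 22 rose and 12 fell in the negative sort, beside 21% and 26.6% of all genes. In the positive sort 21 rose and 10 fell, beside 21.1% and 26.3% of all genes. Of 18 further FGF ligands only FGF14 passed the filter, at 0.373 FPKM in normal and 0.628 FPKM in senescent libraries, and it was not called. Of 9 further FGF receptors and binding proteins, 2 passed. FGFR3 fell by 0.84 (SE 0.18, adjusted p = 0.00371), from 1.21 to 0.435 FPKM, and the decoy receptor FGFRL1 was not called at 15.4 and 14.7 FPKM. The senescent mean of FGFR3 lay under the filter of 0.5 FPKM, so FGFR3 passed only through the normal libraries. FGF14 passed only through the senescent ones.

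Of the other PDGF genes, PDGFD and PDGFRL rose and PDGFC was not called, beside 23.9% higher and 29.9% lower over all genes tested. PDGFD, a ligand of PDGFRB, had 1.10 ± 0.535 FPKM in normal (SD, n = 3) and 5.71 ± 0.497 FPKM in senescent libraries (SD, n = 6), and the 95% interval of its log2 rise ran from 1.60 to 2.40 (adjusted p = 4.22e-05). PDGFRL, a secreted protein that resembles the PDGF receptors, had 0.316 ± 0.0504 and 4.97 ± 1.04 FPKM, a rise of 2.72 (SE 0.16, adjusted p = 8.28e-06). The normal mean of PDGFRL lay under the filter of 0.5 FPKM, so it passed only through the senescent libraries. PDGFC, a ligand of PDGFRA, averaged 36.7 and 34.6 FPKM.

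Of the 8 genes that activate or inhibit HGF or form the related MST1 pair, only 2 passed the filter. Both rose, beside 23.9% higher over all genes tested. SPINT2, an inhibitor of the proteases that activate the HGF precursor, had 1.31 ± 0.184 FPKM in normal (SD, n = 3) and 10.7 ± 2.04 FPKM in senescent libraries (SD, n = 6), a rise of 2.62 (SE 0.13, adjusted p = 4.54e-06). MST1, a protein related to HGF, rose by 1.19 (SE 0.18, adjusted p = 0.000532), from 0.509 to 1.82 FPKM.

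Heparan sulfate proteoglycans hold FGF at its receptor. Of their core proteins 4 of 10 tested rose and SDC1 fell by 0.47, beside 23.9% higher and 29.9% lower over all genes. Against the same normal libraries, 4 rose and 1 fell in the negative sort, beside 21% and 26.6% of all genes. In the positive sort 3 rose and 1 fell, beside 21.1% and 26.3% of all genes, and GPC6 was not called there (adjusted p = 0.061). HSPG2, perlecan of the basement membrane, rose from 61.5 to 136.5 FPKM (log2 change 1.15, SE 0.10, adjusted p = 3.79e-05). SDC4, a syndecan of focal adhesions, rose from 93.9 to 183 FPKM (0.97, SE 0.11, adjusted p = 0.000113). GPC3, a lipid-anchored glypican, rose from 0.919 to 4.81 FPKM (1.86, SE 0.24, adjusted p = 0.00028), and the related GPC6 rose by 0.72. Of the enzymes that build or trim the chains, 5 of 11 tested rose and 1 fell, beside the same 23.9% and 29.9%. SULF2, which removes sulfate groups from the chains outside the cell, rose from 3.15 to 17.9 FPKM (2.51, SE 0.32, adjusted p = 0.000258), while its relative SULF1 averaged 74.5 and 115.8 FPKM and was not called. The chain polymerase subunit EXT2 rose by 0.56 and the sulfotransferase NDST1 by 0.54, and HS3ST3A1 fell by 0.82.

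Of 21 receptor adaptors and kinases of the RAS-ERK chain, all tested, 3 rose and 6 fell, beside 23.9% and 29.9% of all genes, so the share that fell was near that of all genes. NRAS, a small GTPase that relays the receptor signal, fell by 1.35 (SE 0.10, adjusted p = 1.85e-05), from 31.7 to 12.2 FPKM, and the related HRAS fell by 0.67. CBL, which tags activated receptors with ubiquitin, fell by 0.56. Of 16 tested genes that ERK induces or that restrain it, 7 rose and 3 fell, beside 23.9% and 29.9% of all genes. CCND1, cyclin D1, rose from 205 ± 86.9 FPKM (SD, n = 3) to 602 ± 68.4 FPKM (SD, n = 6), by 1.62 in log2 units (SE 0.21, adjusted p = 0.000272). The ERK phosphatase DUSP4 rose by 1.24, and the transcription factors ETV1 and ETV5 by 1.27 and 0.83. Those that fell, named after their values were seen, were the ERK phosphatase DUSP7 by 0.73, the feedback inhibitor SPRY4 by 0.66 and the EGF receptor inhibitor ERRFI1 by 0.45. The calls of GPC6 and DUSP4 were lost with weighted libraries (adjusted p = 0.0982 and 0.0614). None of the 66 genes was called between the PD-L1-sorted groups.

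**Figure D4:**
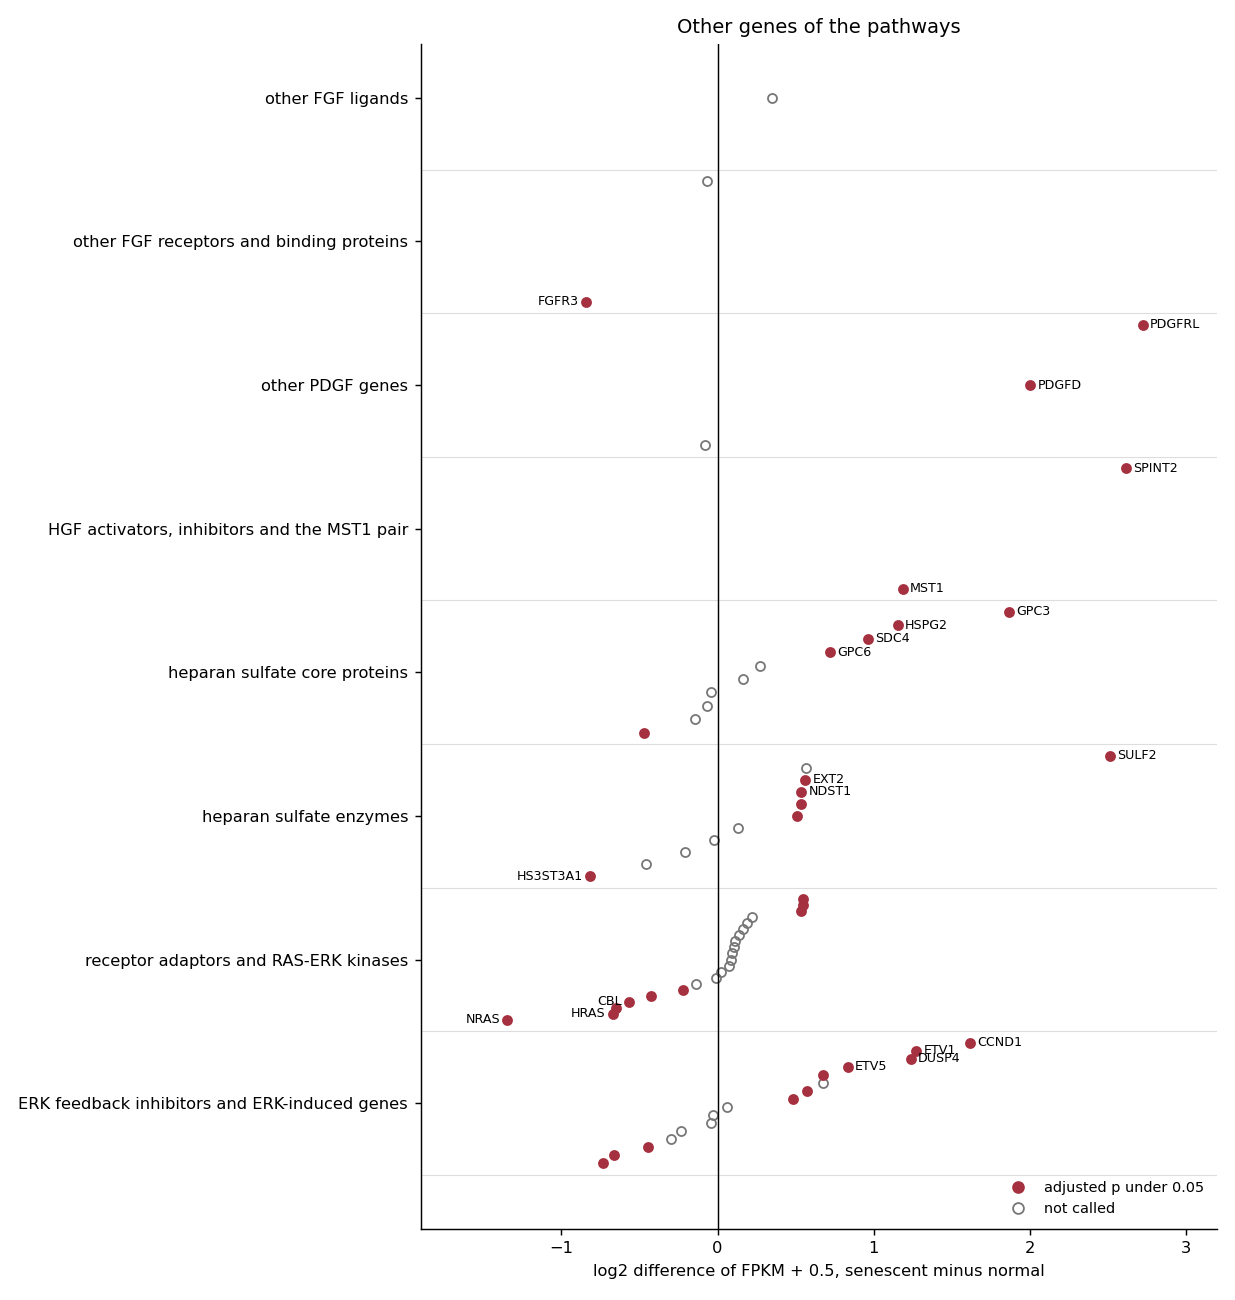
Log2 differences, senescent minus normal (x axis), of the 66 tested genes of the 8 pathway lists (y axis, by list); each point is a gene, filled where the adjusted p over all genes is under 0.05, and up to 4 called genes of each list are named. PDGFRL, SPINT2 and SULF2 lie furthest to the right at 2.72, 2.62 and 2.51, and NRAS furthest to the left at -1.35. PDGFRL and FGF14 passed the filter only through the senescent libraries, and FGFR3 only through the normal ones.

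A deposited table of predicted regulators lists 129 motifs and tracks with 211 distinct target genes. None of the 10 genes was among those targets, nor was any of the other 105 pathway genes. The authors' enrichment was made over a limited list of input genes, and whether these genes were on that list was not examined. Their absence from the targets therefore says nothing of which factors regulate them.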

How the data were processed

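The authors deposited FPKM values for 52741 RefSeq transcripts in 9 libraries. The submitters' processing notes name STAR 2.5.2a, HTSeq 0.11.2, DESeq2 1.22.2 and build hg19; the program that made the FPKM values is not given in the sources used here. Transcripts were summed per symbol. Genes with a mean of at least 0.5 FPKM were fitted as log2(FPKM + 0.5) with limma 3.58.1 (R 4.3.3) with an intensity trend, all 3 groups in the fit, and p-values adjusted by the Benjamini-Hochberg method over all 12763 genes or, for transcripts, all 19964. The filter used the mean over all 9 libraries, so a gene could pass only through the group where it was high. The fold changes understate changes of low genes. Figures used matplotlib 3.10.9. The genes and lists were chosen with earlier results of these data known. All 10 genes are named, with the 4 called genes of largest change in each pathway list and the nearest profiles; FGF14, FGFRL1, PDGFC, SULF1, SDC1, DUSP7, SPRY4 and ERRFI1 were named after their values were seen, and 1 gene that the rule names is not reported here. The deposited table of regulators, with iRegulon's enrichment score made by the authors, was used only for its target genes. Promoters come from RefSeq GRCh38.p14 and junctions from GENCODE GRCh38 transcripts. Depth was estimated from steps in low FPKM values and is approximate. Alternatives changed the pseudocount, filter, scaling, spread model, replicate block, libraries fitted and transcripts summed, and left out each library.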

Additional observations from a re-analysis of the deposited data

How the results depend on the processing

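FGF1, FGF2, FGF5, FGF7 and FGFR1 kept their call and direction against normal under each alternative run, and no called result changed sign. The uncalled differences of PDGFA and PDGFRB between all senescent and normal libraries changed sign in 3 and 1 of 20 alternatives, and in 6 and 3 of 21 for PD-L1-positive against normal. The count of genes called between all senescent and normal libraries was 6865, and 4747 to 7203 under alternatives that kept all libraries; leaving out each library gave 5653 to 7257. The 10 genes gave 6 to 8 calls when each library was left out, in place of 7. Between the PD-L1-sorted groups, 0 genes became 1 with a pseudocount of 0.1, 2 without the filter and 2 with sample weights, and 0 to 3 when each library was left out, none of them among the 10 genes; the cause was not tested. Without normal replicate 3, PD-L1-negative replicate 1 or PD-L1-positive replicate 3 the count was 1, and without PD-L1-positive replicate 2 it was 3. MET also lost its call without the filter (adjusted p = 0.0685), with quantile normalization (0.0669) and with sample weights (0.126), by limma. With each library scaled to an equal sum of FPKM, higher genes made up 33.0% of calls for PD-L1-negative against normal, in place of 44.1%, and 32.7% for PD-L1-positive, in place of 44.5%. Whether the replicate numbers pair the libraries was not settled. Of 9 same-numbered pairs 4 correlated above 0.1, and libraries correlated best with their own number in 10 of 18 cases. Between the sorted groups alone r was 0.0942, 0.223 and 0.457. Set side by side by number, FGF1, FGF5, FGFR1 and MET were higher and FGF7, PDGFA and PDGFRB lower in the PD-L1-positive library at all 3 numbers. FGF2, PDGFRA and HGF went both ways. The share of all genes that kept 1 direction at all 3 numbers was not computed, so this shows nothing particular to these genes. No call was made between the sorted groups with the block. The replicate block gave 7155 genes called between senescent and normal libraries, with 7 of the 10 genes among them, 6352 in PD-L1-negative cells, 6330 in PD-L1-positive cells and 0 between the sorted groups. Transcript calls of the 10 genes numbered 9, and 8 to 12 under alternatives chosen after seeing the data. HGF rests on 6 to 25 fragments a library.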
